A study of Mus musculus with 12 samples.

Results

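Acute insulin exposure was described from 6 of the 12 libraries of the series: 3 of mHypoE-46 cells harvested 4 h after 100 nM insulin and 3 of cells harvested 4 h after vehicle, which was phosphate buffered saline. The libraries were chosen by their labels alone. mHypoE-46 is an immortalised embryonic mouse hypothalamic neuronal line from a male, labelled as expressing neuropeptide Y and agouti-related peptide. All 6 libraries share this 1 line and a culture medium with 5.5 mM glucose and 5% fetal bovine serum. Total RNA was counted on a NanoString nCounter mouse panel, which reads single fluorescent barcodes bound to each miRNA without amplification. Of 566 mouse miRNA probes, 176 (31.1%) were tested; each had counts over a threshold, the negative control mean of the library plus 2 SD, in 3 or more of the 6 libraries. The experiment was repeated independently, so replicates are separate treatments of 1 line and p-values measure the spread between these.

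A miRNA guides the Argonaute complex to messenger RNAs that pair with its seed, bases 2 to 8 from the 5′ end, and lowers their translation and stability. miRNAs with the same seed share most predicted targets. Neurons with neuropeptide Y and agouti-related peptide drive feeding, and insulin restrains them through the insulin receptor, PI3-kinase and Akt. Several miRNAs, among them let-7, miR-103 and miR-107, and miR-29, are known from liver, fat or muscle as brakes on parts of this pathway.

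The sequences below belong to miRNAs of smallest p on either side of 0 that had a RefSeq entry, to the miR-23a, miR-27a and miR-24 cluster, and to members of seed families compared in the results (miR-193, miR-26, miR-103 with miR-107, and let-7). They are RefSeq mature sequences (GRCm38.p6), 5′ to 3′, with the seed in capitals. Most probe names carry no arm, so the arm shown is the one that older miRNA nomenclature gave the plain name, and miR-193 is shown as miR-193a-3p.
miR-24-3p: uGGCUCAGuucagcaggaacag
miR-27a-3p: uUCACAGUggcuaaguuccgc
miR-23a-3p: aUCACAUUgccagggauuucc
miR-324-5p: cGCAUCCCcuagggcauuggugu
miR-18a-5p: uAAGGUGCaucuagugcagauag
miR-181a-5p: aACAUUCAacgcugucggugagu
miR-3472: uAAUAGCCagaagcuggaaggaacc
miR-193a-3p: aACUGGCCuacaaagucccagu
miR-193b-3p: aACUGGCCcacaaagucccgcu
miR-26a-5p: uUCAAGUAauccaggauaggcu
miR-26b-5p: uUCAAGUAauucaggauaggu
miR-103-3p: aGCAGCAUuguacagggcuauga
miR-107-3p: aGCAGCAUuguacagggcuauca
let-7a-5p: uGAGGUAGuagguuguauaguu
let-7c-5p: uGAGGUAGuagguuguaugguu
let-7b-5p: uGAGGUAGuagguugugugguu

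On chromosome 8 the 3 mature sequences of miR-23a, miR-27a and miR-24 lie on the plus strand within 334 bases, miR-23a at chr8:84208563-84208583, miR-27a at chr8:84208727-84208747 and miR-24 at chr8:84208875-84208896, outside the span of any annotated protein-coding or long non-coding gene. A second copy of miR-24 lies at chr13:63301251-63301272 within the span of Aopep. miR-107 (chr19:34820700-34820722, minus strand) lies within Pank1, and the 2 copies of miR-103 within Pank3 and Pank2, which encode pantothenate kinases of coenzyme A synthesis. miR-26b (chr1:74394324-74394344) lies within the phosphatase gene Ctdsp1, and the 2 copies of miR-26a within its relatives Ctdsp2 and Ctdspl. The probes let-7a and let-7c differ at 1 of 22 bases, let-7a and let-7b at 2 of 22, and miR-103 and miR-107 at 1 of 23, so values of these near copies are uncertain where probes cross-react.

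Counts of mouse miRNAs per library ranged from 171622 to 210310 in insulin and from 142158 to 213462 in vehicle. The negative control mean, a measure of background, was 45.5, 36.8 and 30.0 counts in insulin replicates 1, 2 and 3, against 37.1, 38.3 and 35.6 counts in vehicle. The label of a neuronal line was checked against 7 neuronal miRNAs. Of these, miR-9 was at 1146 to 1559 counts in insulin and 1063 to 1515 counts in vehicle, above threshold in 6 of 6 libraries. Brain-enriched miR-128, activity-responsive miR-132 and miR-218 were near threshold, above it in 5, 5 and 4 libraries. miR-124, the most abundant miRNA of mature neurons, was above it in 0 of 6 (37 to 49 counts in insulin, 47 to 53 in vehicle), as were miR-137 and miR-138. Of the 33 viral probes, 3 met the same filter, so a tested miRNA with counts near the threshold need not be expressed.

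The comparison of insulin with vehicle asks which miRNAs respond early, before the insulin resistance that the labels tie to longer exposure. Fitted changes were small. The log2 fold changes of the 176 miRNAs had a median of 0.01 and middle 50% between -0.12 and 0.15, with extremes of -0.48 for miR-328 and 0.62 for miR-297c. Of the 176 miRNAs, 0 (0%) passed an adjusted p of 0.05 in edgeR, where the smallest value was 0.951; 2 had an unadjusted p below 0.05. The same held for DESeq2 (0 passed; 3 below 0.05 before adjustment) and for limma fitted to the authors' signals (0 passed; 0 below 0.05 before adjustment). In edgeR with replicate number as a block, 0 passed and 18 were below 0.05 before adjustment. Values above 0 numbered 92 and values below 0 numbered 84, but 66 and 110 with scaling to the 100 most abundant probes, 60 and 116 with scaling to positive controls, and 63 and 113 in limma. The 95% interval lay within a 2-fold change in either direction for 160 of 176 miRNAs, and within a 1.5-fold change for 74, with background left in the counts. Unsubtracted background brings the fitted change of a dim probe closer to 0.

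**Figure D1:**
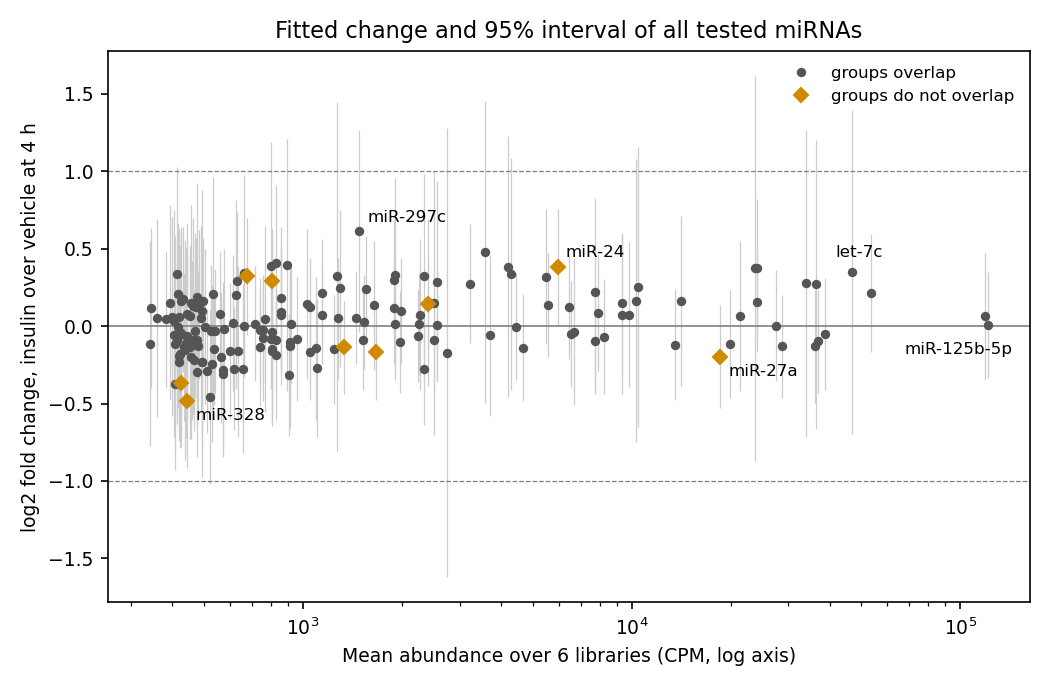
Fitted log2 fold change (insulin over vehicle at 4 h, y axis) against mean abundance in CPM (log x axis) for the 176 tested miRNAs, with 95% intervals as grey bars, dashed lines at a 2-fold change and orange diamonds for the 9 miRNAs whose groups did not overlap. Point values run from -0.48 (miR-328) to 0.62 (miR-297c), and of the abundant probes miR-125b-5p lies at 0.01 and let-7c at 0.35 with a wide interval.

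On the positive side, miR-24, which in other cells restrains cell-cycle and apoptosis genes, had the smallest p. It was at 7889, 6087 and 6208 CPM (edgeR's depth-scaled counts after TMM scaling) in insulin, against 4788, 5173 and 5535 CPM in vehicle. Every insulin library lay above every vehicle library, with insulin replicate 1 well above the rest. The fitted log2 fold change of 0.38 (SE 0.16) had a 95% interval of 0.01 to 0.75 and an edgeR adjusted p of 0.951, and was 0.25 without insulin replicate 1.

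miR-324-5p, a brain-expressed miRNA, lies within the span of Acadvl, a gene of fatty acid oxidation (chr11:70012060-70012082, plus strand). It was at 815, 880.2 and 962 CPM in insulin, against 759, 639 and 768 CPM in vehicle (log2 fold change 0.29, SE 0.15). The groups did not overlap, and its value ran from 0.23 to 0.35 as each library was left out. miR-18a, of the proliferation-linked miR-17-92 cluster, was at 735, 706 and 818 CPM in insulin, against 499, 659 and 644 CPM in vehicle (0.32, SE 0.16). The groups again did not overlap, with vehicle replicate 1 lowest, and the value without it was 0.20. In that library miR-18a had 71 counts, under the threshold of 76.95, and it was above threshold in 5 of 6 libraries.

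The largest fitted change belonged to miR-297c and was at 2584, 1376 and 1421 CPM in insulin, against 893, 1438 and 1176 CPM in vehicle. Insulin replicate 1 stood apart and the other libraries overlapped. The log2 fold change of 0.62 (SE 0.28) was 0.26 without that library. The abundant probe miR-1944 followed the same library, at 33350, 23030 and 25270 CPM in insulin, against 18290, 24060 and 20470 CPM in vehicle. Its log2 fold change was 0.38 (SE 0.19), and 0.21 without insulin replicate 1.

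On the negative side, neuron-enriched miR-328 had the smallest p of all, at 402, 379.5 and 327 CPM in insulin, against 584, 513 and 462 CPM in vehicle. Every insulin library lay below every vehicle library. The fitted log2 fold change of -0.48 (SE 0.19) had a 95% interval of -0.91 to -0.05 and an edgeR adjusted p of 0.951. The raw counts were 70, 72 and 52 in insulin, against 83, 77 and 86 in vehicle, and lay over threshold in 5 of 6 libraries. With the negative control mean subtracted the value was -0.92, also not called.

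miR-193b, known as a brake on growth in tumour cells, was at 402, 374 and 333 CPM in insulin, against 513, 459 and 462 CPM in vehicle. The groups did not overlap, and the log2 fold change was -0.37 (SE 0.18). It was near background, above threshold in 4 of 6 libraries. miR-3472, within the span of Rtl4 on chromosome X (chrX:145039390-145039414, plus strand), was at 597, 379.5 and 340 CPM in insulin, against 661, 639 and 515 CPM in vehicle. Here insulin replicate 1 lay among the vehicle libraries, and the log2 fold change of -0.46 (SE 0.24) was -0.74 without it.

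miR-421 was at 930.2, 780 and 711 CPM in insulin, against 1139, 1045 and 838 CPM in vehicle (-0.32, SE 0.17), with overlapping groups. miR-181a, which is abundant in brain and lymphocytes, was at 1924, 2303 and 2113 CPM in insulin, against 2855, 2623 and 2223 CPM in vehicle (-0.28, SE 0.16). Insulin replicate 2 lay above vehicle replicate 3, and the other libraries were separated.

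**Figure D2:**
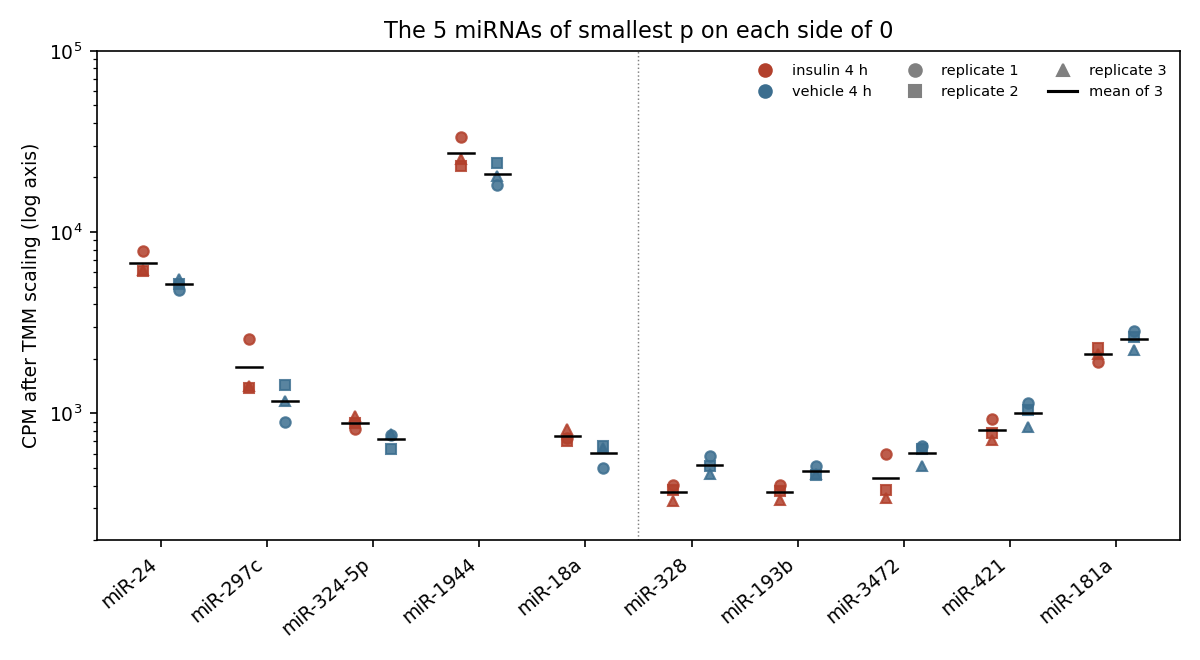
Abundance in CPM (log y axis) of the 5 miRNAs of smallest p above 0 (left of the dotted line) and below 0 (right), with a symbol for each library, insulin left of vehicle, and the mean of 3 as a bar. Insulin replicate 1 (circles) is the highest point for miR-24, miR-297c and miR-1944, at 7889, 2584 and 33350 CPM.

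Groups that did not overlap were counted over all tested miRNAs as a description free of the fitted spread. All 3 insulin values lay above all vehicle values for 4 of 176 miRNAs (2.27%) and below them for 5 (2.84%), 9 in all (5.11%). With 3 libraries per group, some miRNAs separate in this way without any group difference, so a lack of overlap does not mark a change. Besides miR-24, miR-324-5p and miR-18a, the higher set held miR-484, at 2578, 2461 and 2497 CPM in insulin, against 2194, 2344 and 2298 CPM in vehicle (log2 fold change 0.14, SE 0.13). Besides miR-328 and miR-193b, the lower set held miR-27a, miR-26b and miR-532-5p, the last at 1476, 1634 and 1610 CPM in insulin, against 1779, 1884 and 1643 CPM in vehicle (-0.17, SE 0.13). Margins were narrow: the highest insulin value of miR-27a was 18050 CPM and its lowest vehicle value 18120 CPM, and those of miR-26b were 1289 and 1294 CPM. With positive control scaling the split was 3 higher and 23 lower, and with housekeeping mRNA scaling 0 higher and 7 lower, so none of the 4 higher miRNAs was without overlap there. The geometric mean of the positive controls was 768.5, 678 and 553 counts in insulin, against 496, 573 and 621 counts in vehicle.

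The 10 most abundant miRNAs took 49.3% to 54.1% of the counts in insulin and 49.3% to 52.5% in vehicle. Brain-enriched miR-125b-5p averaged 121600 ± 11410 CPM in insulin and 121000 ± 9213 CPM in vehicle (SD, n = 3 each; log2 fold change 0.01, 95% interval -0.34 to 0.35). The probe miR-720, which reads a transfer RNA fragment rather than a true miRNA, averaged 121400 ± 21100 CPM in insulin and 116300 ± 14290 CPM in vehicle. These top probes differed between groups by less than their spread. miR-21 was at 55970, 53970 and 62940 CPM in insulin, against 41880, 50050 and 57230 CPM in vehicle (0.21, SE 0.17). Vehicle replicate 3 lay within the insulin values, and without vehicle replicate 1, the lowest library, the value was 0.10. miR-22 (-0.10), miR-29a (-0.05), let-7b (-0.13) and miR-125a-5p (-0.13) had intervals within a 1.5-fold change in either direction.

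The abundant miRNAs let-7c, miR-29b, miR-16 and let-7a differed more between replicates than between groups. Between libraries of the same number, each of them was higher in insulin for every replicate number. They were among 30 of the 176 miRNAs for which this held, and 28 were lower in insulin for every number. let-7c was at 29070, 58060 and 69930 CPM in insulin, against 18590, 40950 and 63600 CPM in vehicle. The replicate 1 libraries of both groups were lowest, and the groups overlapped. Its log2 fold change of 0.35 (SE 0.45) ran from -0.01 without vehicle replicate 1 to 0.81 without vehicle replicate 3. miR-16, a repressor of cell-cycle genes, was at 21620, 35450 and 54380 CPM in insulin, against 15990, 28560 and 47400 CPM in vehicle, and miR-29b followed the same libraries. Without insulin replicate 3 the value of miR-16 was -0.10 and that of miR-29b -0.06, and without vehicle replicate 3 they were 0.74 and 0.70.

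Within the let-7 family this spread was unequal. let-7a was at 11750, 27910 and 40860 CPM in insulin, against 9155, 17940 and 35050 CPM in vehicle. Its within-group SD of 0.95 on the log2 scale was second among the 176 miRNAs, whose median was 0.24. let-7b was at 29750, 38530 and 34930 CPM in insulin, against 41100, 36310 and 35540 CPM in vehicle, with no such gap at replicate 1. The 2 mature sequences share the seed and differ at 2 of 22 bases. Other miRNAs with a wide spread were miR-223, known from myeloid cells, at 3503, 2619 and 1610 CPM in insulin and 647, 5539 and 2523 CPM in vehicle, and miR-322, miR-31, let-7g and let-7f; let-7a, let-7f, let-7g, miR-31 and miR-322 were picked after their values were seen.

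Over all 176 miRNAs, the first principal component of log2 CPM held 63.2% of the variance. Its scores were -2.92, 1.53 and 3.84 for insulin replicates 1, 2 and 3, against -4.23, -1.43 and 3.21 for vehicle. The scores thus rose with replicate number in both groups, and did not separate libraries by treatment. Libraries of the same number sat in adjacent lanes of the cartridge, vehicle in lanes 1, 3 and 5 and insulin in lanes 2, 4 and 6. Vehicle replicate 1 had the lowest total (142158 counts) and correlations of 0.959 to 0.978 with the other 5 libraries. The difference between group means exceeded the within-group SD for 37 of 176 miRNAs. With 3 libraries per group such a difference also arises without any treatment effect, and 0 of the 176 passed in edgeR.

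**Figure D3:**
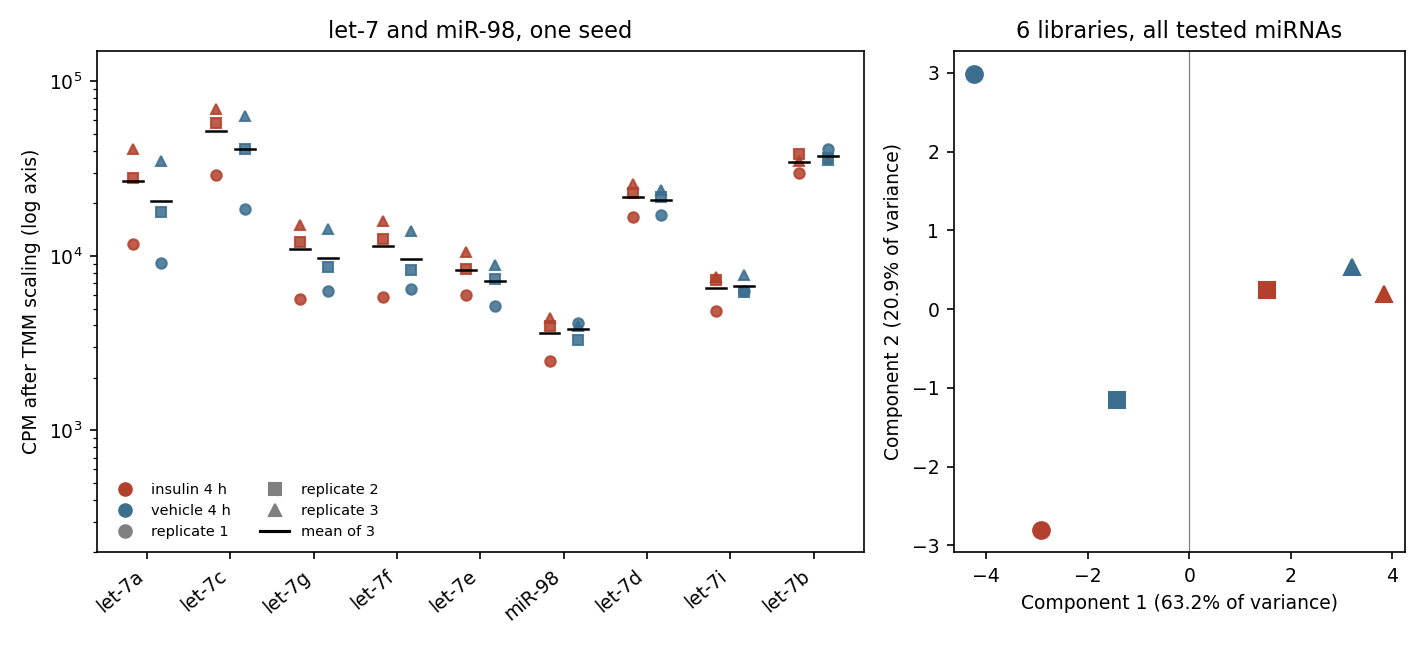
Left, CPM (log y axis) of the 9 let-7 and miR-98 probes in each library, insulin left of vehicle, with the mean of 3 as a bar; replicate 1 (circles) is lowest for let-7a, at 11750 CPM in insulin and 9155 CPM in vehicle, but not for let-7b in vehicle. Right, scores of the 6 libraries on the first 2 principal components, with replicate 1 of both groups at -2.92 and -4.23 on the first and replicate 3 at 3.84 and 3.21.

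miRNAs listed as regulators of insulin action or glucose use lay above 0 for 20 of 31 tested members (0 called; median 0.02), beside 92 of 176 tested miRNAs with a median of 0.01. The list, which holds miR-1983, was chosen with earlier results of these data known. With scaling to the 100 most abundant probes or to positive controls, 12 of the 31 lay above 0. miR-103, which in liver and fat represses caveolin-1 and insulin sensitivity, was at 1797, 1929 and 2667 CPM in insulin, against 1104, 1691 and 2266 CPM in vehicle. The groups overlapped, and the value of 0.33 (SE 0.27) was 0.10 without vehicle replicate 1 and 0.61 without vehicle replicate 3. Its near copy miR-107 was at 1717, 1560 and 1780 CPM in insulin, against 1364, 1292 and 1627 CPM in vehicle (0.24, SE 0.15), with 1 vehicle library inside the insulin range.

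miR-143, which in obese mouse liver impairs Akt activation, was at 1992, 2735 and 3044 CPM in insulin, against 1392, 1851 and 2958 CPM in vehicle (0.32, SE 0.29), with 0.0961 without vehicle replicate 1 and 0.675 without vehicle replicate 3. Its cluster partner miR-145 averaged 4439 ± 338 CPM in insulin and 4449 ± 479 CPM in vehicle (SD, n = 3 each; log2 fold change -0.003, 95% interval -0.35 to 0.34). miR-29c averaged 1920 ± 315 CPM in insulin and 1897 ± 105 CPM in vehicle (0.02, SE 0.16). The intervals of miR-145 and miR-29c lay within a 1.5-fold change in either direction, and that of miR-143 did not.

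miR-33, which is encoded in an intron of Srebf2 and lowers cholesterol efflux, averaged 565 ± 98.4 CPM in insulin and 633 ± 88.2 CPM in vehicle (-0.16, SE 0.19). miR-378, within the gene of a mitochondrial coactivator, averaged 776 ± 47.6 CPM in insulin and 823 ± 68.7 CPM in vehicle (-0.08, SE 0.14). miR-1983 averaged 449.6 ± 41.0 CPM in insulin and 399.9 ± 61.0 CPM in vehicle (0.17, SE 0.20), and was near background, above threshold in 4 of 6 libraries. The groups of these 3 overlapped.

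Of miRNAs linked to hypothalamic energy balance, 5 of 14 probes were tested and 2 lay above 0, miR-103 and miR-107 (0 called; median -0.13); the most abundant, miR-100, had -0.14. Neuron-enriched miRNAs lay above 0 for 6 of 10 (median 0.03; 0 called), but for 3 when scaled to the top 100 probes and 2 when scaled to positive controls. Among them miR-9, which promotes neuronal differentiation, averaged 7479 ± 830.2 CPM in insulin and 7986 ± 455 CPM in vehicle (-0.09, SE 0.15). Activity-responsive miRNAs lay above 0 for 9 of 15 (median 0.01; 0 called), but for 5 under those scalings. Of these, miR-132, a CREB target that promotes dendrite growth, was at 591, 516.5 and 409 CPM in insulin, against 527, 473 and 387 CPM in vehicle, with overlapping groups (0.14, SE 0.21). Its value was 0.01 without insulin replicate 1 and 0.27 without insulin replicate 3.

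The miR-17-92 and paralogous clusters lay above 0 for 6 of 9 (median 0.15; 0 called), and for 6 under each scaling tried. Their members ranged from -0.12 for miR-25 to 0.39 for miR-106b, and the list's median ran from -0.01 without insulin replicate 3 to 0.32 without vehicle replicate 3. The most abundant member, the probe that reads miR-106a and miR-17 together, averaged 14920 ± 3270 CPM in insulin and 13330 ± 3402 CPM in vehicle. Imprinted Dlk1-Dio3 miRNAs lay above 0 for 5 of 11 (median -0.06; 0 called), and for 3 with scaling to the 100 most abundant probes or to positive controls. The list's median was -0.25 without insulin replicate 1 and 0.08 without vehicle replicate 1. Of these, miR-376a was at 1280, 679.9 and 767 CPM in insulin, against 394, 972 and 709 CPM in vehicle, with insulin replicate 1 highest and vehicle replicate 1 lowest (0.39, SE 0.35, and 0.06 without insulin replicate 1). Its 56 counts in vehicle replicate 1 were under the threshold of 76.95. miR-539 had -0.15 (SE 0.19).

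Lists of miRNAs known from other cell types were described alongside, without a test. The libraries are of 1 labelled line, so values on these lists do not show that such cells were present. In bulk RNA, fewer cells of a type and less RNA per cell cannot be told apart. Epithelial miRNAs lay above 0 for 1 of 4 tested (of 10 probes), with summed levels of 4157 to 4484 CPM in insulin and 4134 to 4767 CPM in vehicle; miR-96 had 0.01 and miR-200b -0.13. Glial and mesenchymal miRNAs lay above 0 for 4 of 6 tested (of 12), at 35730 to 44030 CPM in insulin and 40070 to 42800 CPM in vehicle, and their most abundant members were miR-27a and miR-23a. Of these, miR-27a is also on the insulin action list and miR-23a on the activity-responsive list. Blood, endothelial, liver and muscle miRNAs lay above 0 for 1 of 5 tested (of 19), at 3151 to 5191 CPM in insulin and 2616 to 7377 CPM in vehicle; miR-133a, a muscle miRNA, had -0.29 (SE 0.24), with -0.11 without vehicle replicate 1 and -0.44 without vehicle replicate 3. Each of these 3 lists had 0 members called, their ranges overlapped between groups, and their part in the results was not tested.

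Because miRNAs of 1 seed share predicted targets, counts were also summed over the 127 tested probes with a RefSeq sequence, giving 90 seed families, 20 of them with 2 or more probes. Of the 90 families, 0 (0%) passed in edgeR, where the lowest adjusted value was 0.955; the single-probe family of miR-24 was the 1 family below 0.05 before adjustment. The largest family, let-7 and miR-98, held 16.7% of the counts of tested miRNAs. It summed to 176300 ± 58100 CPM in insulin and 157300 ± 46580 CPM in vehicle (SD, n = 3 each; log2 fold change 0.16, 95% interval -0.54 to 0.87). The family of miR-125a-5p and miR-125b-5p (14.9% of counts; -0.02, interval -0.41 to 0.37) had an interval within a 1.5-fold change in either direction. Probes without a matched sequence are missing from these sums.

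Of the families with 2 or more probes, those of smallest p above 0 were miR-103 with miR-107 (0.29, SE 0.19), miR-19a with miR-19b (0.21, SE 0.15) and miR-221 with miR-222 and miR-1928 (0.19, SE 0.15). Those of smallest p below 0 were miR-181a with the miR-181b and miR-181d probe (-0.25, SE 0.14), miR-27a with miR-27b (-0.20, SE 0.13) and miR-25 with miR-92b (-0.12, SE 0.14). The miR-27 family summed to 18030 ± 999.7 CPM in insulin and 20670 ± 1854 CPM in vehicle, and the miR-181 family to 2816 ± 174 CPM in insulin and 3342 ± 445 CPM in vehicle. Without vehicle replicate 1, the 3 families above 0 had values of 0.14, 0.09 and 0.08, and without vehicle replicate 3 they had 0.485, 0.34 and 0.325. The miR-181 family had -0.15 and -0.34 without those libraries, and the miR-27 family -0.13 and -0.26. That of miR-25 with miR-92b ran from -0.18 without insulin replicate 2 to -0.02 without insulin replicate 1.

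Some miRNAs that share a seed or a transcript lay on opposite sides of 0. miR-193 was at 1131, 827.5 and 874 CPM in insulin, against 548.5, 919 and 671 CPM in vehicle (0.41, SE 0.22), and miR-193b, with the same seed, had -0.37. Summed, the pair had 0.14 (SE 0.17). miR-26a was at 2446, 1976 and 1843 CPM in insulin, against 1688, 1505 and 1895 CPM in vehicle (0.30, SE 0.17), while miR-26b was at 1280, 1233 and 1289 CPM in insulin, against 1294, 1518 and 1369 CPM in vehicle (-0.14, SE 0.13). In the miR-23a cluster on chromosome 8, miR-24 had 0.38, miR-23a 0.07 (SE 0.22) and miR-27a -0.20 (SE 0.14). The mature miR-24 of the copy on chromosome 13 is identical, so the miR-24 value cannot be given to the chromosome 8 transcript alone. The differences between members of these pairs and of this cluster were not tested.

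**Figure D4:**
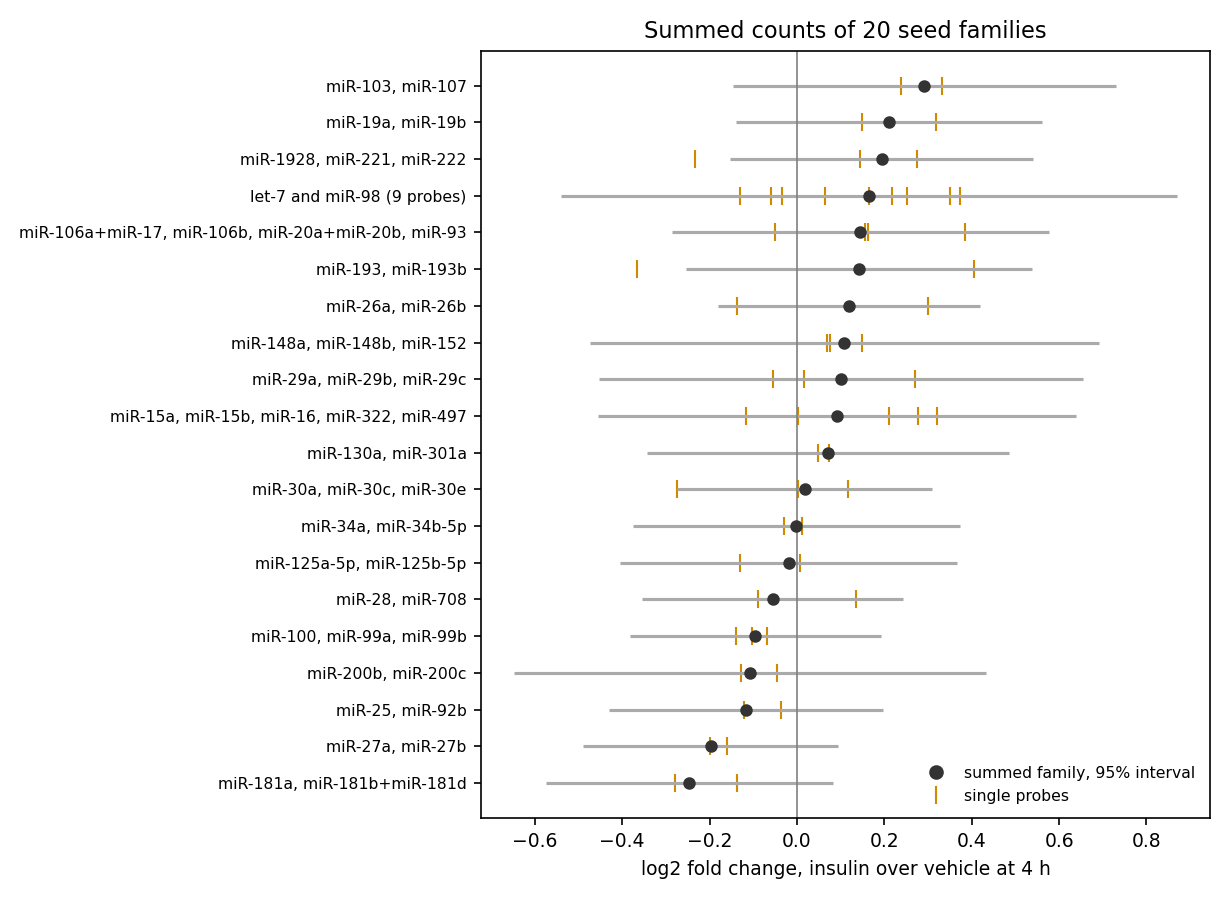
log2 fold change (insulin over vehicle at 4 h, x axis) of counts summed over the 20 seed families with 2 or more tested probes, with 95% intervals, and single probes as orange ticks. Each interval includes 0, from miR-103 with miR-107 at 0.29 to miR-181a with the miR-181b and miR-181d probe at -0.25, and the 2 ticks of miR-193 and miR-193b lie at 0.41 and -0.37.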

How the data were processed

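The authors deposited raw nCounter output for 620 probes per library, named here as an expected count table because, per the file headers, instrument settings that are not whole share its columns. Probe values themselves were whole and were not altered by rounding; the planned design had assumed plain counts. In a second table from the authors, each deposited signal of a mouse miRNA is its raw count times 1 factor per library, to within 0.35%; its software is not given in sources used here.

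Counts of 176 mouse miRNAs were fitted in edgeR 4.0.16 under R 4.3.3 (TMM scaling, quasi-likelihood F test, two-sided, 6 libraries, 4 residual and 4.09 prior degrees of freedom), with Benjamini-Hochberg adjustment and a threshold of 0.05. SE is the standard error of a log2 fold change, and intervals are 95%. CPM includes TMM scaling. Alternatives used DESeq2 1.42.0 and limma 3.58.1 (log2 of the authors' signal + 1). The 24 h libraries entered only 1 alternative. The script was tested on simulated data.

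Sequences matched 127 of the 176 probes, 46 by exact name and 81 by a table of arms and renamed entries. The named miRNAs are the 5 of smallest p per direction, the 10 most abundant, a fixed list with roles in insulin action or neurons (miR-7a was not tested), the 2 most abundant members of each of 10 lists, up to 5 per direction without overlap, and 3 seed families per direction; miR-193, miR-26a, miR-31, miR-322, miR-106b, let-7a, let-7f and let-7g were added after their values were seen. Members and lists were chosen with earlier results of these data known. Counting precision is set by the totals and thresholds given above, and covers counting error only.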

Additional observations from a re-analysis of the deposited data

How the results depend on the processing

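The count of called miRNAs was 0 under each of the 17 alternatives tried and so was that of seed families, with smallest adjusted p values of 0.424 to 0.994 for miRNAs and 0.49 to 0.997 for families. The count of miRNAs without overlap, 9, was 26 with positive control scaling and 59 without a filter, and 16 to 53 as 1 library was left out, where 3 against 2 libraries separate more easily. With the replicate block, 0 miRNAs and 0 families passed, with smallest adjusted p values of 0.424 and 0.544 and 18 miRNAs at an unadjusted p under 0.05, against 2 without it. Deviations from the group mean correlated by 0.49, -0.25 and 0.77 between libraries numbered 1, 2 and 3. Between libraries of different number the correlations ran from -0.74 to 0.43. The same-number signs were mixed, which does not settle whether the numbers pair the samples. First-component scores rose with replicate number in both groups, and libraries of the same number sat in adjacent lanes. Pairing was not tested further. The main fit left the numbers out, with the replicate block as an alternative. Any variation that libraries of the same number share therefore counts as spread in the main fit, and enters its SEs and intervals. Depth limits miRNAs near the negative control threshold: 61 of the 176 exceeded it in 3 to 5 libraries. With scaling to the 100 most abundant probes the sign of the log2 fold change turned for miR-125b-5p (-0.08), miR-720 (-0.0448), miR-29c (-0.0731), miR-96 (-0.0743) and miR-23a (-0.0115). With positive control scaling the sign of the log2 fold change turned for miR-125b-5p (-0.0828), miR-720 (-0.0219), miR-29c (-0.0718), miR-96 (-0.0794) and miR-23a (-0.00133). With housekeeping mRNA scaling the sign of the log2 fold change turned for miR-125b-5p (-0.000362) and miR-145 (0.00141). Without a filter the sign of the log2 fold change turned for miR-29a (0.0425), miR-145 (0.0898) and miR-378 (0.00112). With a mean count of at least 100 the sign of the log2 fold change turned for miR-125b-5p (-0.0832), miR-720 (-0.0384), miR-29c (-0.0772), miR-96 (-0.077) and miR-23a (-0.0206). With the negative control mean subtracted the sign of the log2 fold change turned for miR-125b-5p (-0.0342), miR-29c (-0.00832) and miR-96 (-0.0126). With all 12 libraries in the fit the sign of the log2 fold change turned for miR-125b-5p (-0.00218). In limma on the authors' signals the sign of the log2 fold change turned for miR-125b-5p (-0.0817), miR-720 (-0.0313), miR-29c (-0.0802), miR-96 (-0.0742), miR-23a (-0.025) and miR-223 (0.148). With the replicate block the sign of the log2 fold change turned for miR-223 (0.0981). As each library was left out, values crossed 0 for miR-29a (-0.12 to 0.0592), miR-145 (-0.0532 to 0.0759), miR-125b-5p (-0.0326 to 0.083), miR-96 (-0.0255 to 0.0809), miR-720 (-0.0901 to 0.165), miR-29b (-0.062 to 0.697), miR-16 (-0.103 to 0.738), miR-29c (-0.126 to 0.0881), miR-106a+miR-17 (-0.022 to 0.352), miR-200b (-0.358 to 0.00758), miR-23a (-0.0853 to 0.249), miR-223 (-0.635 to 0.689), let-7c (-0.00734 to 0.814) and miR-539 (-0.278 to 0.0192). List medians also crossed 0: let-7 (-0.079 to 0.409), insulin action (-0.018 to 0.088), hypothalamic energy balance (-0.204 to 0.008), neuron-enriched (-0.032 to 0.041), activity-responsive (-0.018 to 0.081), epithelial (-0.175 to 0.051) and blood, endothelial, liver and muscle (-0.251 to 0.025). Besides the miRNAs whose values without a library are given in the results, named values that kept their sign but moved by over 1.5 times were those of miR-26b (-0.188 to -0.0536), miR-532-5p (-0.219 to -0.0999), miR-33 (-0.31 to -0.0594), miR-378 (-0.149 to -0.0104), miR-1983 (0.0594 to 0.288), miR-9 (-0.159 to -0.0103), miR-100 (-0.209 to -0.0761), miR-25 (-0.181 to -0.0363), miR-22 (-0.154 to -0.0128), let-7b (-0.209 to -0.0359) and miR-125a-5p (-0.193 to -0.0586). The cause was not tested.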

Other observations

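Among probes outside the tested class, the viral probe mghv-miR-M1-9 was at 130, 81 and 69 counts in insulin, against 33, 112 and 75 counts in vehicle, with overlapping groups. The housekeeping mRNA Actb, which encodes beta-actin, was at 16169, 16537 and 14526 counts in insulin, against 13352, 12221 and 15342 counts in vehicle, and the ribosomal protein mRNA Rpl19 at 4052, 4245 and 3366 counts in insulin, against 3792, 3328 and 3749 counts in vehicle. These counts are not depth-scaled, and the groups of both mRNAs overlapped.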
